A study of Xenopus tropicalis with 12 samples.

Results

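An antibody against thyroid hormone receptor (TR) was used on the tail of Xenopus tropicalis tadpoles that lack TRα. Places of the genome that recurred in most libraries are compared here with and without added hormone. The method was ChIP-seq, in which DNA precipitated by an antibody is sequenced. Each library had given 1 list of peaks, a peak being a place where more fragments lay than around it. The peaks of the 6 lists of tails without TRα were merged where they shared at least 1 bp, and a region was kept when at least 4 of the 6 lists had a peak in it. By this rule 3087 of 127402 regions were kept, or 2.42%, while 114754 had a peak in 1 list only. All 12 lists of the series merged into 256032 regions.

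Each region is named by its chromosome and by its start and end in build 9.1 of the genome. Its value in a library is the pileup at the summit, the number of fragments over the highest point of the peak, per 1000000 fragments that the library held after filtering (FPM). Where a library had several peaks in a region, the highest counted. A library without a peak in a region has no value there, which is not a value of 0. Differences are given on the log2 scale as T3 minus control, so that 1 is a doubling with hormone.

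The groups compared were TRaKO T3 and TRaKO control, with WT T3 and WT control set beside them. TRaKO tadpoles were TRα(-/-), and WT tadpoles were wild type and born of the same parents. The T3 groups received the active thyroid hormone T3 at 10 nM, over 18 hours from around stage 54. The control groups had no T3. Tails of each group gave 3 libraries made with the same non-commercial TR antibody. The design note of the series speaks of technical replicates from material merged over several tadpoles, and of RNA although these libraries are ChIP DNA. If so, the spread behind each p-value is that of libraries from pooled tadpoles, and animals are not compared. The labels of genotype and tissue were taken as given, since the receptor gene and marker genes were not located in build 9.1 here.

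TRs are nuclear receptors that sit on DNA mostly as partners of the retinoid X receptor, in general repressing their target genes without hormone and activating them with it. Amphibians have the paired receptors TRα and TRβ. In tadpoles TRα is expressed widely before metamorphosis, while the gene of TRβ is itself switched on by T3. In TRα(-/-) tissue the gene of TRβ is still present. The tail is the organ that T3 causes to be resorbed. Comparing T3 with control in TRaKO tail asks where the antibody signal changes with hormone when TRα is missing.

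The libraries were shallow and uneven. TRaKO T3 1, 2 and 3 held 820314, 1547243 and 149532 fragments after filtering, against 284375, 606620 and 858074 in TRaKO control 1, 2 and 3. The lowest peaks had 1 fragment at the summit in TRaKO T3 3, 3 fragments in TRaKO T3 2 and 2 fragments in the other libraries of TRaKO tail. These lowest peaks stood at 2.44, 1.94 and 6.69 FPM in TRaKO T3 1, 2 and 3, against 7.03, 3.30 and 2.33 FPM in TRaKO control 1, 2 and 3. TRaKO T3 3 and TRaKO control 1 thus had no value under a level that the other lists reached. Of the kept regions, 288, 90 and 1425 had no peak in TRaKO T3 1, 2 and 3, against 1458, 450 and 306 in TRaKO control 1, 2 and 3. The mean fragment length was 171, 189 and 142 bp in the TRaKO T3 libraries, against 155, 190 and 204 bp in the TRaKO control libraries.

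Most kept regions were weak. A peak in all 6 lists was found in 596 regions, where the median peak had 9 fragments and 17.1 FPM. A further 965 regions had a peak in 5 lists (median 9.70 FPM) and 1526 in 4 lists. The regions just inside the rule, in 4 lists, had a median of 5 fragments and 6.69 FPM, and the 2582 regions just outside it, in 3 lists, had 4 fragments and 5.17 FPM. Of the regions in 4 lists, 1072 had a peak in 2 TRaKO T3 and 2 TRaKO control lists, and 644 of these, or 60.1%, lacked exactly the shallow libraries TRaKO T3 3 and TRaKO control 1. A peak in all 3 TRaKO T3 lists and 1 TRaKO control list was found in 325 regions, and a peak in 1 TRaKO T3 list and all 3 TRaKO control lists in 129. The T3 difference went with the missing peaks, with medians of 0.23 over these 325 and -0.70 over these 129. It was 0.33 with 3 T3 and 2 control lists, -0.16 with 2 and 2, and -0.25 with 2 T3 and 3 control lists. The median over all kept regions, given below, is taken over these unlike sets.

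**Figure D1:**
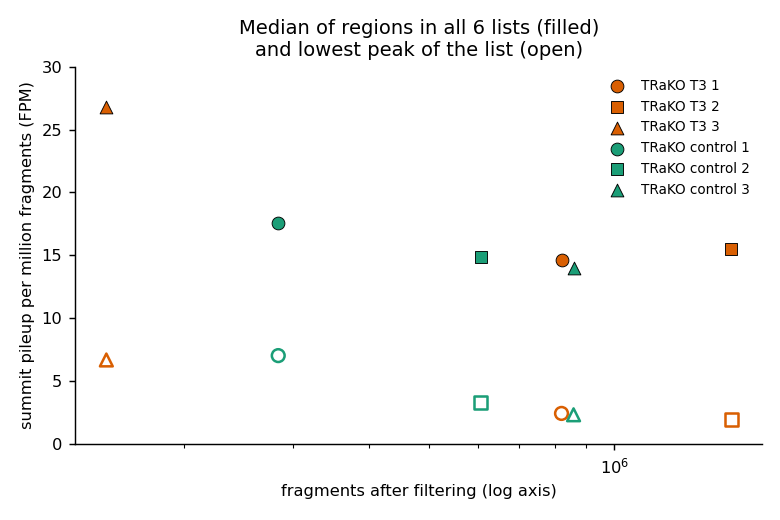
Median summit pileup in FPM over the 596 regions with a peak in all 6 lists (filled) and lowest peak of the list (open), against the fragments of the library after filtering on a log axis. TRaKO T3 3, with 149532 fragments, has the highest median, 26.8 FPM, and the other 5 libraries lie between 14.0 and 17.6.

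With all 6 libraries, T3 moved the signal of TRaKO tail as a whole to neither side by more than the libraries differed among themselves. The median difference over the 3087 regions was -0.01, with quartiles of -0.48 and 0.47, and 1531 regions (49.6%) lay above 0. Without TRaKO T3 3, the shallowest library, the median was -0.22, and 1127 of 3076 regions lay above 0. It was -0.21 when the lists were merged again without that library. This lean to the lower side over all kept regions was not tested between libraries. In the 596 regions with a peak in all 6 lists, TRaKO T3 3 included, the median was 0.23 (quartiles -0.20 and 0.66). Of these regions 377 (63.3%) lay above 0. The median value over these 596 was 14.6, 15.5 and 26.8 FPM in TRaKO T3 1, 2 and 3, against 17.6, 14.8 and 14.0 in TRaKO control 1, 2 and 3. TRaKO T3 3 alone stood high, while TRaKO T3 1 and 2 lay among the control libraries. The groups' mean log2 medians, 4.19 ± 0.48 in TRaKO T3 and 3.94 ± 0.17 in TRaKO control (SD, n = 3 each), differed by 0.24 (exact two-sided permutation p = 0.6, adjusted p = 0.9 over 3 such library measures, where 3 against 3 cannot go below 0.1).

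The lean of the 596 regions rested on the shallowest library. TRaKO T3 3 was the highest of the 6 lists in 353 of the 596 regions, or 59.2%, and it holds no value below 6.69 FPM. Without it, the median difference of the same regions was -0.03 and 282 (47.3%) lay above 0. The groups did not overlap in 85 of the 596 regions with TRaKO T3 higher (14.3%) and in 30 with TRaKO T3 lower (5.03%). With only 2 T3 libraries to be apart, without TRaKO T3 3, these counts were 91 (15.3%) and 106 (17.8%). Over all kept regions and all 6 libraries they were 408 (13.2%) with TRaKO T3 higher and 543 (17.6%) with TRaKO T3 lower. Missing peaks make such a gap easier to reach there.

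Single regions were tested with limma, a linear model that shares the estimate of the spread over all regions, with Benjamini-Hochberg adjustment, and called at an adjusted p below 0.05. T3 gave 5 regions called higher (0.162% of the 3087) and 11 called lower (0.356%), 1 of them on a single T3 value, 16 in all (0.518%), while 197 regions (6.38%) had an unadjusted p below 0.05. The calls depended on how the values were made. Each library was also centred on its median over the 596 regions of all 6 lists, where TRaKO T3 3 stood high. This moved the median of all kept regions to -0.17, and the split was 1 higher and 14 lower. With the authors' fold enrichment in place of the pileup no region was called, with values divided by fragment length 0 and 2 were, and without the trend of the spread with level 0 and 1 were. The differences shrank by fold enrichment, to medians of 0.23 over the 5 regions and -1.07 over the 11, but by fragment length they stayed at 1.34 and -2.61, beside 1.21 and -2.62 as first measured. Without TRaKO T3 3 the calls numbered 23 higher and 41 lower, and without TRaKO control 3 they numbered 9 and 20. They numbered 5 and 7 without TRaKO T3 2, 4 and 7 without TRaKO control 1, and 5 and 6 without TRaKO control 2. None of the 16 regions changed direction under any alternative fitted on the same regions.

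**Figure D2:**
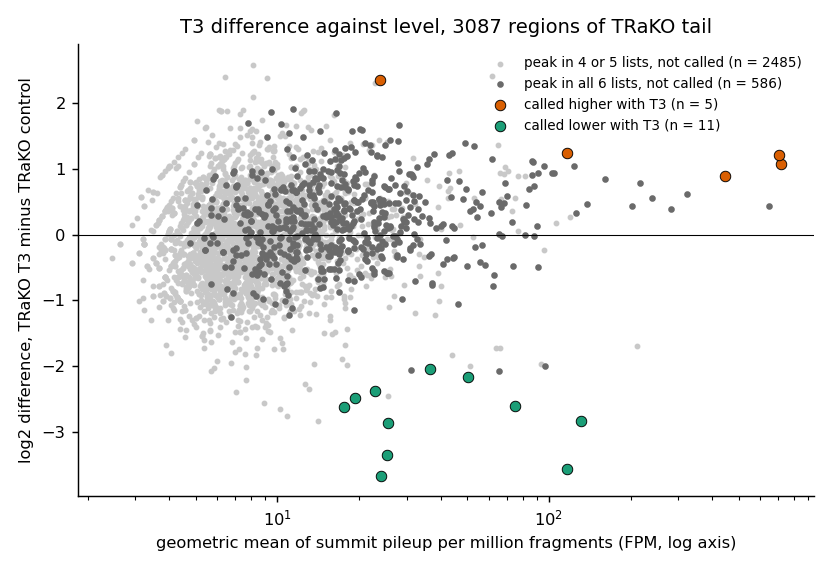
Difference between TRaKO T3 and TRaKO control on the log2 scale, against the geometric mean of the summit pileup in FPM on a log axis, for the 3087 kept regions, each a point. The 11 regions called lower lie between -3.66 and -2.04 at levels of 17.5 to 131 FPM. Of the 5 called higher, 4 are among tall regions at differences of 0.89 to 1.24.

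The regions called higher included the tallest in the tail. The first, at chr8:23529079-23530237, had 985, 1002 and 1244 FPM in TRaKO T3 1, 2 and 3, against 447, 528 and 423 in TRaKO control 1, 2 and 3, from 808, 1551 and 186 fragments against 127, 320 and 363. All 3 TRaKO T3 libraries were above all 3 TRaKO control libraries by a wide gap. The means were 1077 ± 145 FPM in TRaKO T3 and 466 ± 54.8 FPM in TRaKO control (SD, n = 3 each), a difference of 1.21 (SE 0.13, limma adjusted p = 9.386e-05), or 2.31-fold. The second, at chr5:35928559-35930448, had 999.6, 998.6 and 1117 FPM in the TRaKO T3 libraries, against 528, 514 and 444 in the TRaKO control libraries, a difference of 1.07 (SE 0.11, limma adjusted p = 9.386e-05). TRaKO T3 1 and 2 were nearly equal there, and the groups were again apart.

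The third region called higher lay close to the first, at chr8:23523129-23524073, so the pair shares its neighbourhood. It had 575, 564 and 682 FPM in the TRaKO T3 libraries, against 324, 374 and 286 in the TRaKO control libraries, a difference of 0.89 (SE 0.15, limma adjusted p = 0.00782). The region at chr8:108179986-108180803 was far weaker, with 42.7, 42.0 and 86.9 FPM in the TRaKO T3 libraries, against 17.6, 8.24 and 8.16 in the TRaKO control libraries. Its control values rested on 5, 5 and 7 fragments, and the difference was 2.35 (SE 0.46, limma adjusted p = 0.0327). The fifth, at chr2:102078803-102079612, had 176, 196 and 167 FPM in the TRaKO T3 libraries, against 63.3, 107 and 64.1 in the TRaKO control libraries, a difference of 1.24 (SE 0.26, limma adjusted p = 0.0447). TRaKO T3 3 was the highest of the TRaKO T3 libraries in 4 of these 5 regions, and all 5 kept a positive difference without it. The call at chr8:108179986-108180803 was lost without TRaKO control 2 (difference 2.17). The call at chr2:102078803-102079612 was lost without TRaKO T3 1, TRaKO T3 2 or TRaKO control 1, with differences of 1.26, 1.18 and 1.11. Both calls were also lost, at unchanged differences, when missing peaks of all regions were set to the lowest peak of the list.

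By the authors' fold enrichment, the pileup over the background of the same library within 10000 bp, the tall regions had close values in both groups. No input library was used, so a tall peak adds to its own background. Close ratios of tall regions therefore cannot decide whether their signal differed. The first region on chromosome 8 had values of 31.3 to 33.4 in the TRaKO T3 lists, against 27.3 to 28.6 in the TRaKO control lists. Its summits held 127 to 1551 fragments. The region on chromosome 5 had 15.3 to 16.9 in the TRaKO T3 lists, against 14.2 to 16.7 in the TRaKO control lists, and these ranges overlap. The difference of the log2 fold enrichment over the 5 regions was 0.09 to 1.71, with a median of 0.23, beside 0.17 over all kept regions.

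**Figure D3:**
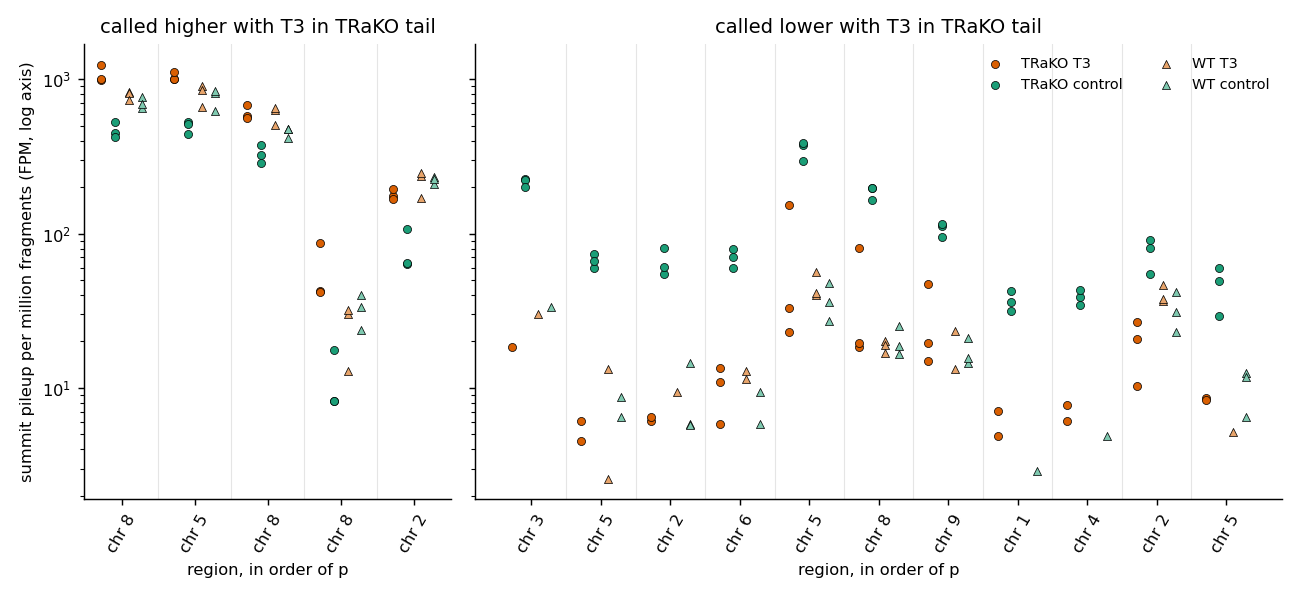
Summit pileup in FPM (log axis) in each library with a peak, for the 5 regions called higher (left) and the 11 called lower (right), in order of p. Circles are TRaKO libraries, triangles WT libraries, orange T3 and green control. In every region called lower the TRaKO control circles stand above all other points, and in 4 of the 5 called higher they lie below them. The regions were chosen by their TRaKO values, and the share of all kept regions with such an order was not counted.

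The regions called lower had a median length of 514 bp (230 to 869), beside 886 bp over all kept regions. They had tall peaks in the TRaKO control libraries above all. Their geometric means over the libraries with a peak were 17.5 to 131 FPM. The first by p, at chr3:53245461-53245707, had a peak of 18.3 FPM (15 fragments) in TRaKO T3 1 and none in TRaKO T3 2 and 3, against 225, 221 and 200.4 FPM in TRaKO control 1, 2 and 3, from 64, 134 and 172 fragments. The difference was -3.56. Its call rests on a single T3 value, so the spread of T3 there was not measured but taken from the model, and the gap is given as a value. TRaKO T3 2 was the deepest library, and its list went down to 1.94 FPM. The next, at chr5:1060211-1061079, had 6.10 and 4.52 FPM in TRaKO T3 1 and 2 and no peak in TRaKO T3 3, against 59.8, 74.2 and 66.4 in the TRaKO control libraries, a difference of -3.66 (SE 0.45, limma adjusted p = 0.000877). On chromosome 2 from 1919037 to 1919523 the values were 6.10 and 6.46 FPM in TRaKO T3 1 and 2, with no peak in TRaKO T3 3, against 80.9, 54.4 and 60.6 in the TRaKO control libraries, a difference of -3.36 (SE 0.45, limma adjusted p = 0.00174). In these 3 regions every control library stood far above any T3 library with a peak.

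A peak in all 6 lists was found in 5 of the 11 regions called lower, and in each TRaKO T3 3 was the highest T3 library. The first 4 by p follow, and the fifth, at chr2:155159734-155160313, comes below. The region at chr6:135051044-135051557 had 10.97, 5.82 and 13.4 FPM in the TRaKO T3 libraries, against 70.3, 79.1 and 59.4 in the TRaKO control libraries, a difference of -2.87 (SE 0.42, limma adjusted p = 0.00323). The tallest of the set, at chr5:6443944-6444568, had 23.2, 33.0 and 154 FPM in the TRaKO T3 libraries, against 373, 387 and 297 in the TRaKO control libraries, a difference of -2.84 (SE 0.48, limma adjusted p = 0.0109). TRaKO T3 3 stood far above TRaKO T3 1 and 2 there and was still below the lowest control library. On chromosome 8 from 82453567 to 82454428 the values were 18.3, 19.4 and 80.3 FPM in the TRaKO T3 libraries, against 165, 196 and 197 in the TRaKO control libraries, a difference of -2.60 (SE 0.45, limma adjusted p = 0.0109). On chromosome 9 from 3883744 to 3884329 they were 19.5, 14.9 and 46.8 FPM in the TRaKO T3 libraries, against 113, 115 and 94.4 in the TRaKO control libraries, a difference of -2.17 (SE 0.40, limma adjusted p = 0.0212). This last call was lost without TRaKO control 2, where the difference was -2.11, and with missing peaks set to the lowest of the list.

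The remaining 4 had the largest limma p-values of the 11. The region at chr1:189160991-189161344 had 4.88 and 7.11 FPM in TRaKO T3 1 and 2, against 42.2, 31.3 and 36.1 in the TRaKO control libraries, a difference of -2.62 (SE 0.50, limma adjusted p = 0.0327). The last 3, at chr4:122879684-122879913, chr2:155159734-155160313 and chr5:120249218-120249679, had differences of -2.49, -2.04 and -2.38. Their limma adjusted p-values were 0.0327, 0.0386 and 0.0447. Each of these 4 calls was lost when any of several libraries was left out, though the differences kept their sign. All 4 were kept without TRaKO T3 3 or TRaKO control 3. The ones on chromosomes 1, 4 and 5 were lost without TRaKO T3 1 (differences of -2.35, -2.32 and -2.39). All 4, in the order given, were lost without TRaKO T3 2 (-2.90, -2.67, -1.65 and -2.37), TRaKO control 1 (-2.51, -2.49, -1.98 and -2.16) or TRaKO control 2 (-2.73, -2.57, -1.90 and -2.30). The one at chr2:155159734-155160313 was also lost with missing peaks set to the lowest of the list. Over all 11 regions the T3 values lay between 4.52 and 154 FPM, against 29.1 to 387 in TRaKO control, and in 6 of the 11 TRaKO T3 3 had no peak. By the authors' fold enrichment all 11 differences kept their sign at -1.83 to -0.80, and none was called.

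Fewer cells with receptor at a site and less receptor per cell cannot be told apart in libraries made from whole tails. Without an input library in the peak calling, a region that yields many fragments with any antibody is not told from one where TR sat. Fragment length differed between the libraries as given above, and its part in the calls was not tested beyond the scaling by it.

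By pileup, the tallest regions in the tail leaned to the T3 side whether called or not. Of the 6 tallest by mean value, 3 were called higher and are described above. The region at chr10:16969893-16970788 had 625, 778 and 883 FPM in the TRaKO T3 libraries, against 436, 570.4 and 691 in the TRaKO control libraries, a difference of 0.44 (SE 0.16, limma adjusted p = 0.496) between groups that overlapped. The region at chr4:52501689-52502257 had 396, 378 and 428 FPM in the TRaKO T3 libraries, against 249.7, 290.1 and 245 in the TRaKO control libraries, a difference of 0.62 (SE 0.15, limma adjusted p = 0.117). The sixth, at chr3:110350625-110351523, had 279, 354 and 341 FPM in the TRaKO T3 libraries, against 253, 211 and 275 in the TRaKO control libraries, a difference of 0.40 (SE 0.17, limma adjusted p = 0.655), which turned to -0.069 by fold enrichment. Neither of the last pair overlapped between groups, and neither was called. Left-out libraries made calls here: the region on chromosome 10 was called without TRaKO control 3 (0.60), and the one on chromosome 4 without TRaKO T3 3 (0.57) or TRaKO control 3 (0.57). By fold enrichment the differences on chromosomes 10 and 4 were 0.12 and 0.009, beside 0.17 over all kept regions. With median-centred libraries the regions on chromosomes 10, 4 and 3 had differences of 0.20, 0.37 and 0.15.

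By level, the lean of the 596 regions was smallest at the bottom. The lowest 25% (149 regions, 4.75 to 10.8 FPM) had a median difference of 0.06, with 79 above 0. The tallest 10% (60 regions, 49.2 to 716 FPM) had a median of 0.44, with 43 above 0. In between, the medians were 0.21, 0.35 and 0.19 at rising level, with no steady order. In the tallest 10% the groups did not overlap in 26 regions with TRaKO T3 higher and in 7 with TRaKO T3 lower, beside 85 (14.3%) and 30 (5.03%) of the 596. Within libraries, no gain of the tallest 10% on the rest was detectable with T3. Their median log2 minus that of the other 536 regions was 2.50, 2.41 and 2.09 in TRaKO T3 1, 2 and 3, against 2.46, 2.54 and 2.37 in TRaKO control 1, 2 and 3. The groups overlapped, with a difference of -0.13 (exact two-sided permutation p = 0.5, adjusted p = 0.9 over the 3 library measures).

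The regions outside the calls that are named next, chosen by rule, were weak or rested on missing peaks. Differences of all regions not called ran from -2.83 to 2.59, and the regions at these ends are not among those named. Among regions of all 6 lists whose groups did not overlap, the largest differences not called on the higher side were at chr5:9934395-9935209 (1.91), chr9:77600651-77601746 (1.70) and chr4:219431-220402 (1.69). The first had 15.8, 16.8 and 40.1 FPM in the TRaKO T3 libraries, against 7.03, 8.24 and 3.50 in the TRaKO control libraries, and its control values were 2, 5 and 3 fragments. Of the regions with a peak in all 3 TRaKO T3 lists and 1 TRaKO control list, the tallest was at chr5:90893598-90894118. It had 57.3, 77.6 and 187 FPM in the TRaKO T3 libraries, against 17.6 FPM in TRaKO control 1 and no peak in TRaKO control 2 and 3, a difference of 2.42 (SE 0.59, limma adjusted p = 0.123) on a single control value. It was called without TRaKO T3 1 (2.78), TRaKO T3 3 (1.92) or TRaKO control 3 (2.42). With missing peaks set to the lowest of the list it was called too, at 4.20, a difference that rests on the filled values. The region also had a peak in all 6 WT lists, at 160.3, 127 and 36.2 FPM in the WT T3 libraries, against 108, 98.5 and 42.7 in the WT control libraries. In the other direction, the tallest not called was at chr3:133621830-133622586, with 18.1 FPM in TRaKO T3 2 alone, against 52.8, 95.6 and 74.6 in the TRaKO control libraries, a difference of -1.996 (SE 0.50, limma adjusted p = 0.130). The next, at chr8:101018816-101019589 and chr10:9719344-9719908, had differences of -2.46 and -1.23 (limma adjusted p = 0.110 and 0.685). The regions on chromosomes 3 and 8 were called without TRaKO T3 3, which had no peak there, at unchanged values. Each has a single T3 value, so the spread of T3 behind those calls was not measured there. Of the 325 regions with a peak in all 3 TRaKO T3 lists and 1 control list, the next 3 by mean value lay on chromosomes 2, 7 and 10. They had differences of 0.43 to 0.89.

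The longest chain of neighbouring regions in the tail lay on chromosome 2 and had higher pileups with T3 in each of its regions, though not higher fold enrichment. Regions at most 20000 bp apart were joined, which gave 2445 chains, 2032 of them single regions. The longest ran from 102075256 to 102162865, over 87610 bp, and held 21 regions. It was looked at after its values were seen, so it has no test of its own. All 21 regions had a positive difference, from 0.55 to 1.37 with a median of 0.94, and 1 region, the one from 102078803, was called. The groups did not overlap in any of the 21, with TRaKO T3 higher, as in 408 (13.2%) of all kept regions. A peak in all 6 lists was found in 10 of the 21, and missing peaks make such a gap easier to reach in the others. The median over the chain was 103.6, 104.7 and 134 FPM in TRaKO T3 1, 2 and 3, against 66.8, 64.3 and 49.0 in TRaKO control 1, 2 and 3. The WT groups overlapped, with medians of 149, 153 and 127 FPM in WT T3 1, 2 and 3, against 127, 139.5 and 122 in WT control 1, 2 and 3.

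Neighbours in such a chain share their chromatin and their local background, and are not 21 separate measurements. The differences stayed above 0 in all 21 with median-centred libraries (0.49 to 1.09) and with values divided by fragment length (0.58 to 1.61). Without TRaKO T3 3 they were 0.55 to 1.37, and 9 of the 21 were then called, beside 64 of 3076 regions (2.08%) in all. None of the 21 was called when median-centred, by fragment length, by fold enrichment, or without TRaKO T3 1, TRaKO T3 2 or TRaKO control 1. By fold enrichment, where the regions add to their own background, the chain had a median difference of 0.05, with 14 regions above and 7 below 0. The second longest chain, 11 regions at chr8:97806285-97929210, had a median difference of 0.07, with 6 above 0. A chain of 8 regions at chr9:45595060-45641238 had all 8 above 0 with a median of 0.30, and none was called.

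**Figure D4:**
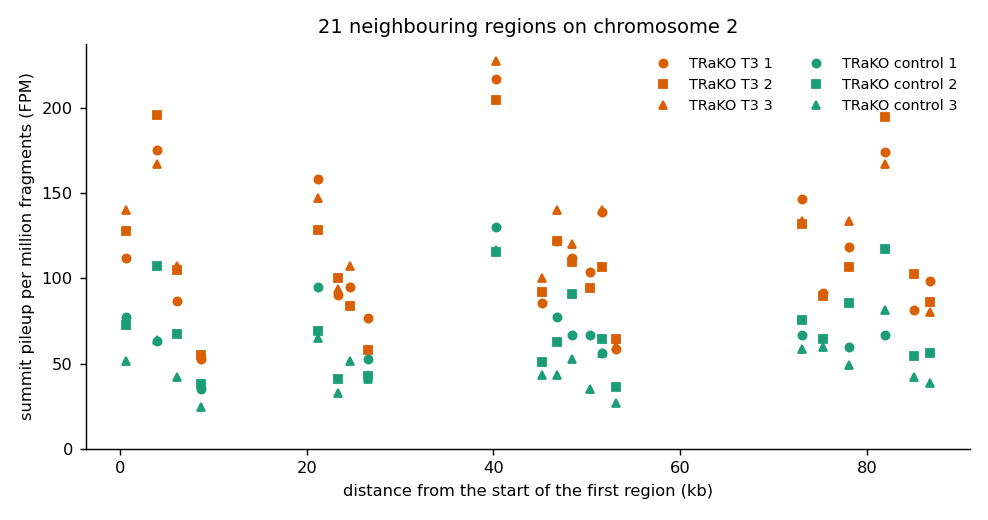
Summit pileup in FPM in the 6 TRaKO libraries for the 21 neighbouring regions on chromosome 2, against the distance from the start of the first region in kb. In each region every TRaKO T3 library with a peak (orange) lies above every TRaKO control library with a peak (green).

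In WT tail the regions called in TRaKO tail had differences on both sides of 0. For the 5 regions called higher in TRaKO tail the WT differences had a median of 0.08, with 3 above and 2 below 0 (-0.45 to 0.39). For the 9 of the 11 regions called lower that had WT values in both groups, the median was 0.06, with 5 above and 4 below 0 (-0.93 to 0.71). Over the other kept regions with a value the WT median was 0.27. Over the 374 kept regions with a peak in all 12 lists, the TRaKO and WT differences had medians of 0.33 and 0.13. Their correlation across these regions was -0.11 (Pearson's r and Spearman's rho alike), given as a description, and 190 had the same sign. Regions of 1 library share its depth.

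**Figure D5:**
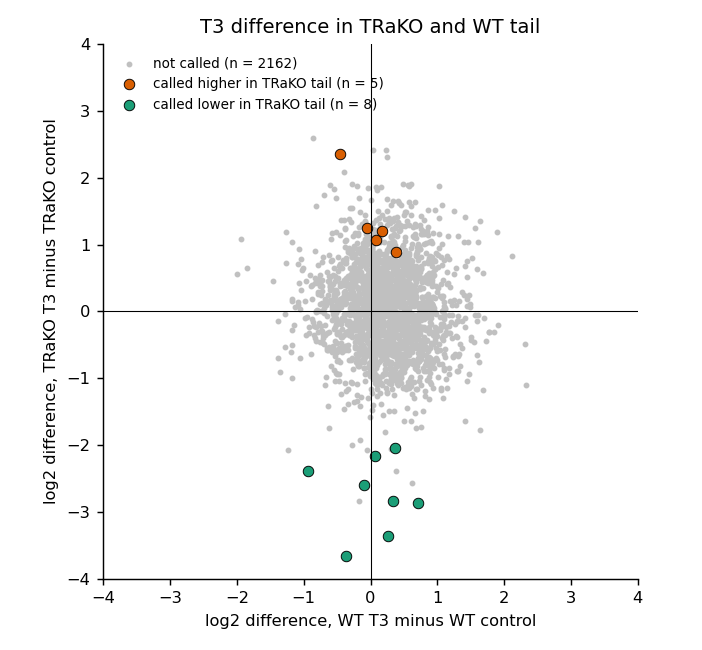
T3 difference on the log2 scale in TRaKO tail (vertical) and in WT tail (horizontal), for 2175 kept regions with a peak in at least 4 WT lists. The 5 regions called higher in TRaKO tail (orange) lie at 0.89 to 2.35 on the TRaKO axis, by which they were chosen. The 8 shown of those called lower (green) lie at -3.66 to -2.04. All of these lie within 1 of 0 on the WT axis, and the share of the 2175 regions that do was not counted.

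Whether the T3 difference itself differed between genotypes was tested by the interaction of genotype and T3 in limma, over the 2216 regions of all 12 lists with a peak in at least 4 TRaKO and 4 WT lists. It was called higher in TRaKO tail in 3 regions (0.135%) and lower in 3 (0.135%), 6 in all (0.271%), while 179 (8.08%) had an unadjusted p below 0.05. All 6 were among the 16 regions called in TRaKO tail. Both tests use the same TRaKO libraries, so this overlap is not independent of those calls. The tall region at chr8:23529071-23530254 had 832, 814 and 738 FPM in the WT T3 libraries, against 648, 768 and 693 in the WT control libraries. Its difference was 1.21 in TRaKO tail and 0.18 in WT tail, which differed by 1.03 (SE 0.16, limma adjusted p = 0.00252). The tall region at chr5:35928549-35930448 had differences of 1.07 in TRaKO tail and 0.08 in WT tail, which differed by 0.99 (SE 0.17, limma adjusted p = 0.00878). With values divided by fragment length no interaction was called. With libraries centred on their medians over the regions of all 12 lists, 1 higher and 7 lower were, and without TRaKO T3 3 they numbered 5 and 13. No interaction was called lower without TRaKO T3 2, TRaKO control 2 or WT T3 2, and 1 was without WT T3 1 or WT control 2. The calls higher became 1 without WT control 1.

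Set side by side, TRaKO control had the highest values at the regions called lower, which were chosen for being higher there than in TRaKO T3. In all 11 regions called lower, every WT library with a peak was below every TRaKO control library, with WT values of 2.58 to 56.7 FPM beside 29.1 to 387 in TRaKO control. The share of all kept regions with such a gap was not counted. The regions called lower on chromosomes 1 and 4 had a peak in only 1 WT list each. With T3, TRaKO minus WT had a median of -0.15 there on the log2 scale (-1.16 to 0.72, 9 regions), and without T3 a median of 3.03 (1.24 to 3.65, 11 regions). At the region on chromosome 3, the WT lists had a single peak per treatment, of 30.1 FPM in WT T3 1 and 33.2 FPM in WT control 2. At the tall region on chromosome 5 from 6443944, the WT T3 libraries had 40.1, 56.7 and 41.3 FPM, against 27.1, 47.8 and 36.2 in the WT control libraries.

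At 4 of the 5 regions called higher, every WT library was above every TRaKO control library. Here too the share of all kept regions with this order was not counted. TRaKO T3 minus WT T3 had a median of 0.38 (-0.27 to 1.21), and TRaKO control minus WT control a median of -0.62 (-1.58 to -0.48). Over the 374 regions of all 12 lists these medians were 0.07 and -0.11. The regions were chosen by their TRaKO values, so these distances describe them and have no test.

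Features of the kept regions that the rule did not use are given next. Their shares among the regions left out were not counted, so they are not shown to be particular to the kept ones. Nearly all, 3038 of 3087 (98.4%), had a peak in at least 1 WT list, and 808 (26.2%) in all 6. Their median length was 886 bp (193 to 6539), while the 11 regions called lower had a median of 514 bp (230 to 869) and the 5 called higher 945 bp (810 to 1890). Within 10 Mb of a chromosome end lay 1889 of the 3087 (61.2%), 6 of the 11 called lower and 1 of the 5 called higher. The T3 difference was alike in both places, with medians of 0.23 over the 384 regions of all 6 lists near an end and 0.22 over the other 212. Within libraries, the median log2 near ends minus that of the interior differed between TRaKO T3 and TRaKO control by less than the libraries did (0.01, exact two-sided permutation p = 1, adjusted p = 1 over the 3 library measures).

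The summit within a region lay as close between the groups as within them. Over the regions of all 6 lists, the median distance between the summits of a pair of libraries was 89 bp within groups and 89 bp between TRaKO T3 and TRaKO control. The group medians of the summit lay 53 bp apart at the median, and within 100 bp of each other in 63.3% of these regions. Every chromosome held kept regions, from 238 on chromosome 10 to 413 on chromosome 2, with median differences of -0.10 on chromosome 3 to 0.08 on chromosome 5. The calls lay on 8 of the 10 chromosomes, with 3 of the 5 higher ones on chromosome 8 and 3 of the 11 lower ones on chromosome 5.

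The spread between libraries of 1 group was near counting error in the typical region, and above it when summed over regions. Over the 596 regions the median SD of the log2 values was 0.57 in TRaKO T3 and 0.49 in TRaKO control. The SD expected from counting error alone is about 0.53 and 0.56 at these pileups. The median SD of 3 values tends to fall below the SD behind them, so this comparison understates the spread. After centring on library medians the SDs were 0.44 and 0.45. Summed over the 596 regions, a chi-square of the pileups was 1.12 to 1.80 times its degrees of freedom in the pairs of libraries of 1 group. Across these regions the log2 values of pairs of libraries correlated at 0.74 to 0.90 within TRaKO T3, at 0.74 to 0.82 within TRaKO control and at 0.63 to 0.78 between them. The most alike pair was TRaKO T3 1 and 2, and the least alike was TRaKO T3 3 with TRaKO control 1.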

How the data were processed

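The 12 deposited lists held 1 peak list per library. The submitters' processing notes name Bowtie2 2.3.4.1 and MACS2 2.1.1.20160309. Each library was called alone from its paired-end fragments, duplicates removed, with no input library, per the file headers. The settings there were 0.05 as the largest q-value, 1510000000 bp as the size of the genome and 10000 bp as the window of the local background. The deposited lists give the pileup (a signal, unscaled), the fold enrichment (the authors' ratio, pileup over local background with a constant added to each) and −log10 of the p-value and the q-value.

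Pileups were scaled to 1000000 fragments after filtering (FPM), from the file headers, which were 149532 to 1547243 in TRaKO tail and 299393 to 1382723 in WT tail, and log2 values were fitted with limma 3.58.1 (R 4.3.3, variance trend, missing values left missing, no pseudocount). Interactions were fitted over all 12 libraries with a shared spread. WT values at a kept region are those of the highest WT peak sharing at least 1 bp with it. Library medians were compared by exact permutation (SciPy 1.17.1). The fits were tested on simulated data. Over the 596 regions in all 6 lists, chi-square over degrees of freedom was 1.12 to 1.80 between libraries of 1 group, and no library was counted as a duplicate.

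The text names up to 8 regions called each way by p, then the largest not called with non-overlapping groups, the 6 tallest, and up to 4 each way with a peak in 3 lists of 1 group and 1 of the other. The 3 further regions called lower, the chains and the lengths were chosen after their values were seen. The members and tests were chosen with earlier results of these data known. Alternatives were other scalings, presence rules, thresholds, overlaps, treatments of missing values and variance models, a replicate block, and each library left out in turn. Scaling by fragment length and a mean pileup of at least 10 are alternatives added after the data were examined. Genes, response elements and sequences at the regions were not analysed here, because the gene table at hand was not of build 9.1.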

Additional observations from a re-analysis of the deposited data

Results flagged for a closer look

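In 6 regions the effect of T3 differed between TRaKO and WT tail by the interaction test in limma (Benjamini-Hochberg adjusted over 2216 regions). The difference of the T3 effects, TRaKO minus WT on the log2 scale, was 1.03 on chromosome 8 from 23529071 (limma adjusted p = 0.00252) and 0.99 on chromosome 5 from 35928549 (limma adjusted p = 0.00878). It was -3.57 on chromosome 6 from 135051044 and -3.17 on chromosome 5 from 6443944 (limma adjusted p = 0.0155 for both). On chromosome 2 from 155159734 it was -2.41 (limma adjusted p = 0.0434), with 20.7, 10.3 and 26.8 FPM in TRaKO T3 and 80.9, 90.7 and 54.8 in TRaKO control, beside 36.7, 37.8 and 46.5 in WT T3 and 31.2, 42.0 and 23.1 in WT control. On chromosome 8 from 108179986 it was 2.80 (limma adjusted p = 0.0438), with 30.1, 32.1 and 12.9 FPM in WT T3 and 33.3, 40.0 and 23.9 in WT control. The region on chromosome 6 had no peak in WT T3 1 and WT control 1, and 11.3 and 12.9 FPM in WT T3 2 and 3 against 5.85 and 9.40 in WT control 2 and 3.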

How the results depend on the processing

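The 5 regions called higher and 11 called lower became 0 and 0 by fold enrichment (123 at an unadjusted p below 0.05), 0 and 2 by fragment length (146), 0 and 1 without the variance trend (164), and 1 and 14 when median-centred. With missing peaks set to the list's lowest they were 4 and 12, of which 3 and 9 were among the first calls. Regions of all 6 lists gave 18 and 8, a mean pileup of at least 10 gave 10 and 13, and merging again without TRaKO T3 3 gave 15 and 35 of 2564 regions, which held all 5 and all 11. Leaving out 1 library gave 4 to 23 higher and 6 to 41 lower. The 3 and 3 interactions became 0 and 0 by fragment length (133 at an unadjusted p below 0.05), 1 and 7 when median-centred and 7 and 5 with a peak in all 12 lists, and 1 to 5 and 0 to 13 without 1 library. The correlation of deviations showed no pairing by replicate number in TRaKO tail (-0.03, 0.03 and -0.06). Between TRaKO T3 and TRaKO control libraries of different numbers it was -0.12 to 0.11, highest for TRaKO T3 3 with TRaKO control 1. A pairing other than by number was not tested. Fragment length rose with the number in TRaKO control, in WT T3 (167, 191 and 209 bp) and in WT control (151, 179 and 201 bp), but not in TRaKO T3. Whether libraries of the same number were prepared together was not tested. The fit with the replicate block gave 16 higher and 18 lower of 1774 regions, and 7 and 6 interactions. The difference of library medians was -0.031 to 0.40 without 1 library, reversed without TRaKO T3 3. Among named regions not called, the difference reversed by fold enrichment at the regions from 110350625 on chromosome 3 (-0.069), from 102099194 on chromosome 2 (-0.086) and from 97099597 on chromosome 7 (-0.21), the last also without TRaKO T3 3 (-0.039 to 0.82 over the libraries left out). The cause of these changes was not tested. Depth limits all values: even in the regions of all 6 lists the median peak held 9 fragments, and a missing peak says only that none was called at that depth.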

Other observations

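A peak in no WT list was found in 49 of the 3087 regions of TRaKO tail. They were weak, with a median of 5.70 FPM, and 31 of the 49 had a negative T3 difference (median -0.29), none of them called. The tallest, at chr7:12447957-12448215, had no peak in TRaKO T3 1 and 16.2 and 60.2 FPM in TRaKO T3 2 and 3, against 120, 110.4 and 83.9 in TRaKO control 1, 2 and 3, a difference of -1.73 (limma adjusted p = 0.174). The TRaKO T3 libraries with a peak were below all 3 TRaKO control libraries there.

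Short regions leaned the same way. Of the 62 kept regions of at most 300 bp, a limit set after the values were seen, 42 had a negative difference, with a median of -0.48, beside -0.00045 over the 3025 longer ones, and 2 were among the regions called lower, beside 11 (0.356%) of all kept regions. A peak in no WT list was found in 7 of the 62 (11.3%) and in 42 of the 3025 (1.39%). The short regions were not weaker, with a median of 12.8 FPM beside 8.38 in the longer ones.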
